A study of Mus musculus with 4 samples.

Results

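The Slc25 genes encode the mitochondrial solute carriers, and this account covers every symbol of the count files made of Slc25a and a number, 47 of 26214 symbols. A count in at least 1 library was seen for 46 of them, and 40 passed the filter on low counts and were tested. The samples were mouse colon tumours induced with AOM, the carcinogen azoxymethane, and DSS, dextran sulfate sodium, which injures the colonic lining. Both groups had this treatment; they differed in the Gsk3b genotype given for the intestinal epithelium, labelled Gsk3b (IEC+/+) in 2 libraries and Gsk3b (IEC-/-) in the other 2. The labels name no Cre driver, deleted exons, strain or age. Nor do they tie each library to a mouse of its own, so the replicate spread behind every p-value may not be a spread between mice.

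Carriers of this family sit mostly in the inner mitochondrial membrane, which is otherwise nearly closed to charged metabolites. Each is built from a repeated pair of membrane helices and exchanges or co-transports small solutes such as ADP and ATP, phosphate, citrate, malate, aspartate, acylcarnitine, iron or cofactors. They join the respiratory chain and the citric acid cycle to the cytosol, and several exist as paralogs with the same substrates and different tissue distributions.

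Polyadenylated RNA was sequenced, and total counts per library were 25472503 to 27218515. Gsk3b itself had 170 and 157 CPM (counts relative to the scaled library size) in IEC+/+ replicates 1 and 2, and 152 and 149 CPM in IEC-/- replicates 1 and 2 (edgeR quasi-likelihood adjusted p = 0.681). A count over the whole gene in whole tissue does not check the labels, so groups are named as labelled. All 10 general epithelial markers, Epcam, Krt8 and Vil1 among them, were detected in these libraries. Their summed level was 10467 and 9009 CPM in IEC+/+ compared with 6049.5 and 5616 CPM in IEC-/-. For 10 markers of differentiated colonocytes it was 821 and 410.0 CPM against 86.8 and 90.7 CPM, and for 8 goblet cell markers 5459 and 3266 CPM against 557 and 1121 CPM. Other marker sums were higher in both IEC-/- libraries: for 6 endothelial markers 193 and 185 CPM against 244 and 223 CPM, for 6 macrophage and monocyte markers 668 and 672 CPM against 1073 and 747 CPM, and for 6 hepatocyte markers 31.7 and 42.7 CPM against 111 and 113 CPM. In the last sum Alb alone had 10.03 and 9.27 CPM against 88.8 and 55.6 CPM, and Apoa1 was at most 0.191 CPM in any library. In the macrophage and monocyte sum Lyz2 alone had 396 and 349 CPM against 796 and 504 CPM. Of that list 4 genes were fitted higher and 2 lower. Cd14 was among the lower, with 122 and 211 CPM against 85.5 and 116 CPM. In whole tissue, fewer cells of a type and less RNA per cell cannot be told apart, and the part of these shifts in the carrier values was not tested.

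The transcripts of the family spanned more than 3 orders of magnitude once counts were divided by exon length. Slc25a5, an ADP/ATP carrier of many dividing tissues, had 463 ± 36.2 CPM per kb of exon in IEC+/+ and 352 ± 14.4 in IEC-/- (mean ± SD, n = 2 each), the highest level of the 40 in both groups. Slc25a3, the phosphate carrier that feeds ATP synthase, had 86.0 ± 1.96 and 72.5 ± 0.804 CPM per kb. Slc25a1, the citrate carrier that supplies cytosolic acetyl units, had 60.3 ± 0.907 and 53.2 ± 9.52 CPM per kb. These 3 genes led the order in IEC+/+.

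The next places in IEC+/+ were close to each other. Slc25a24, Slc25a4, Slc25a39 and Slc25a11 had 48.2 ± 12.5, 48.1 ± 2.52, 45.0 ± 1.92 and 42.3 ± 4.30 CPM per kb there, and these neighbours did not differ beyond their spread. In IEC-/- the order was not the same. Slc25a4 stood second with 78.5 ± 4.23 CPM per kb, above Slc25a3, and Slc25a24 stood seventh with 29.5 ± 1.62 CPM per kb. At the other end, Slc25a34, Slc25a48 and Slc25a53 had means of 1.11, 1.05 and 0.132 CPM per kb in IEC+/+. Exon lengths are those of GENCODE and may not be those used for counting.

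**Figure D1:**
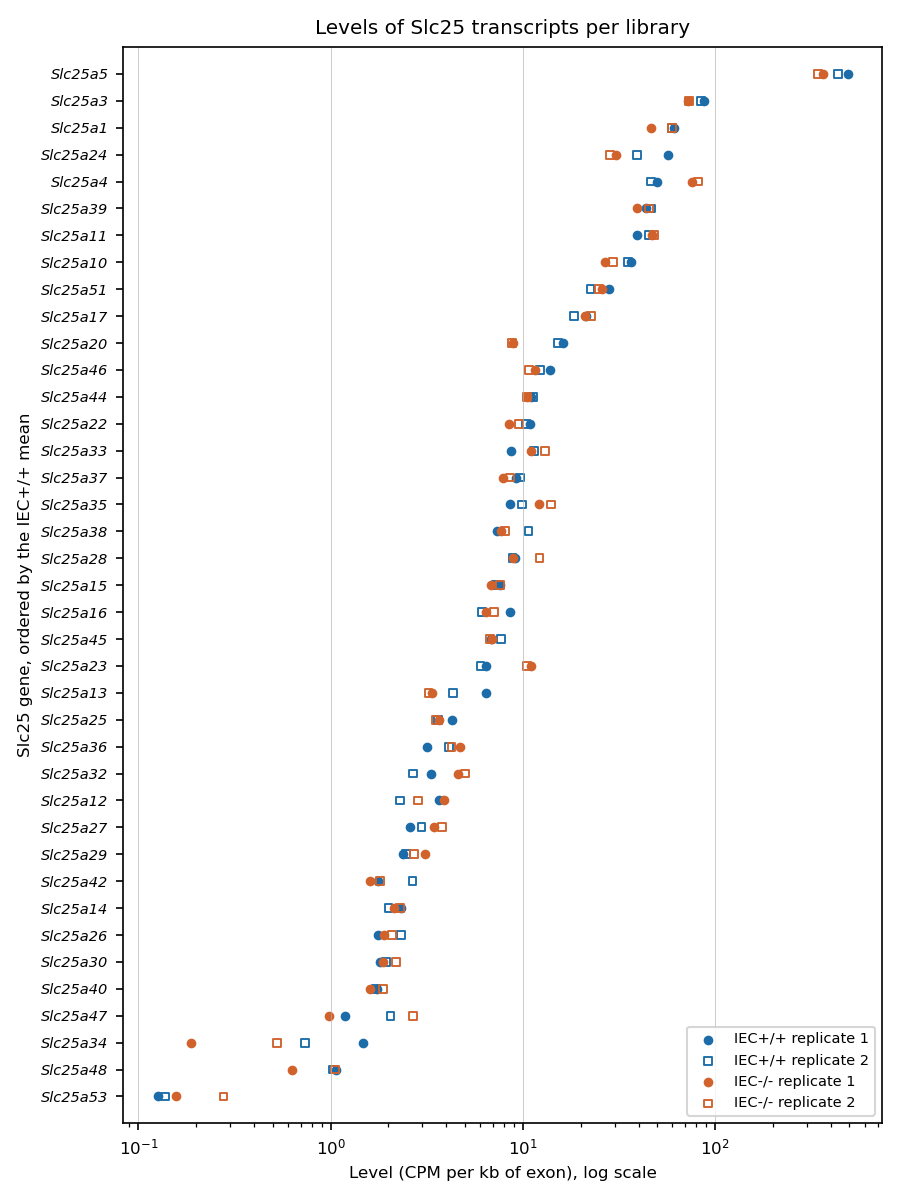
Level of the tested Slc25 transcripts that are named here, in CPM per kb of exon (log axis), 1 symbol per library, blue for IEC+/+ and orange for IEC-/-, ordered by the IEC+/+ mean. Slc25a5 lies above all others in each library, and the orange symbols of Slc25a4 and Slc25a23 lie to the right of the blue ones while those of Slc25a20 and Slc25a24 lie to the left.

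The genes are scattered over 19 chromosomes (GRCm38, the assembly also called mm10). Counting error through shared sequence was gauged from the share of each gene's 50-base words that also occur in transcripts of another gene. For 21 of the 47 genes this share was 0, and for 9 it was above 5%. Slc25a5 had the highest share, 33.8%, mostly with processed pseudogenes such as Gm5560 (21.1% of its words) and Gm5529 (16.2%). Slc25a35 had 25.05%, all of it shared with Rangrf, whose exons overlap 31.3% of its exon length on the opposite strand. The treatment of shared reads and of strand in counting is not given in the sources used here, so the values of both genes are uncertain. The same holds, at smaller shares, for the others above 5%, among them Slc25a33 (12.6%), Slc25a20 (6.20%) and Slc25a10 (5.19%). Of 55 genes with at least 100 counts that shared all 4 counts with another gene, 0 were carriers.

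Sequence at the start of 5 genes is shown because they form the results below: the gene with the smallest p, Slc25a20, and the paralog pairs Slc25a4 with Slc25a5 and Slc25a23 with Slc25a24, whose members had fitted differences of opposite sign. The sequences are RefSeq's, GRCm38.p6, written 5′ to 3′ on the strand of the gene. Capitals mark CCGGAAG, a core of sites for ETS factors, found on either strand. For Slc25a4 only 30 bases around the match are printed; they lie before the RefSeq start but inside the gene as GENCODE places it, downstream of its GENCODE start. For the others the last 150 bases before the earlier of the RefSeq and GENCODE starts are printed.
Slc25a20 (chr9:108661938-108662087, plus strand): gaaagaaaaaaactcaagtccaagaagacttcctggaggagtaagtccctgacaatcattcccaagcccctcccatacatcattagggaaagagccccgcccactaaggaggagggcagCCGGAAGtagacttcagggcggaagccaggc
Slc25a4 (chr8:46211174-46211203, minus strand): acccctagctcCCGGAAGcgtcttcgcccc
Slc25a5 (chrX:36795447-36795596, plus strand): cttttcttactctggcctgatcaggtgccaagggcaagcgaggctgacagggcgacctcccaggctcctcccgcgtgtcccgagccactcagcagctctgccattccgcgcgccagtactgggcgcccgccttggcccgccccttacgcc
Slc25a23 (chr17:57059864-57060013, minus strand): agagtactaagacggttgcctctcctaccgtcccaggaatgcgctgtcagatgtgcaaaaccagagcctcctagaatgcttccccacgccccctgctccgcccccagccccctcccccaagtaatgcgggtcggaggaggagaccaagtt
Slc25a24 (chr3:109122999-109123148, plus strand): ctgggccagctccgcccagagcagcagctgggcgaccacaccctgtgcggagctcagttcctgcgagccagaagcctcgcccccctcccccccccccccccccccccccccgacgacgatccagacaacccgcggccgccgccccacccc

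Over the family, promoter windows of 300 bases (250 before and 50 after a RefSeq start) were found for 36 members, 46 windows in all. CCGGAAG, searched on both strands, occurred in 7 of these (15.2%), against 15.0% of 16220 windows of tested genes and 8.86% of all 32851 windows. CACGTG, the E-box that MYC and related factors bind, occurred in 8 member windows (17.4%), against 9.25% of windows of tested genes and 7.15% of all. The genes were Slc25a1, Slc25a13, Slc25a14, Slc25a15, Slc25a31, Slc25a33 and Slc25a36. TGCGCA, the core of the NRF1 site, occurred in 4 member windows (8.7%, against 12.0% and 7.76%), and AAGGTCA, part of the site of the estrogen-related receptors, in 1 (2.17%, against 3.45% and 4.72%). The end of CCGGAAG and the start of AAGGTCA share 3 letters. A match is a description of the letters, and no match says only that they are not in this window. Slc25a20, with the lowest IEC-/- to IEC+/+ ratio of the members under an unadjusted p of 0.05, and Slc25a4, with a ratio above 1, both carried CCGGAAG.

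In the comparison of IEC-/- with IEC+/+, 0 of the 40 tested carriers passed an adjusted p of 0.05 by edgeR's quasi-likelihood test, while 0.884% of all 16637 genes tested did. At an unadjusted p under 0.05, 4 carriers were higher in IEC-/- (Slc25a23, Slc25a4, Slc25a32 and Slc25a35) and 5 lower (Slc25a20, Slc25a24, Slc25a5, Slc25a10 and Slc25a13). Over all genes 7.5% were higher and 9.12% lower at that limit. DESeq2 called 5 carriers at an adjusted p under 0.05 (3 higher and 2 lower; 8.49% of all genes), the exact test of edgeR 3 (2 higher and 1 lower; 5.22%) and limma-voom 0 (0.469%). The share of all genes called was 0.86% with the size factors of DESeq2, 1.82% with no filter on low counts, 1.27% with the replicate number as a block, 0.0% without either IEC+/+ library, 4.24% without IEC-/- replicate 1 and 3.32% without IEC-/- replicate 2, and the closing section gives the carriers called in these fits. Slc25a20, Slc25a23 and Slc25a4 stood at places 153, 202 and 336 of 16637 genes by p.

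The family as a whole did not move 1 way. The median log2 fold change of the 40 carriers was -0.03, beside 0.01 over all genes, with 18 fitted higher and 22 lower (51.5% and 48.5% of all genes). The groups did not overlap in CPM for 9 carriers with higher and 11 with lower IEC-/- values, and this was so for 24.0% and 24.1% of all genes. Carriers took 0.275% to 0.292% of all counts in the 4 libraries. A change of at least 1.5-fold was fitted for 4 carriers upward (12.6% of all genes) and 4 downward (9.2%), and 24 of the 40 were fitted within 1.2-fold. For 14 carriers the whole 95% interval of the ratio lay within 1.5-fold in either direction.

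**Figure D2:**
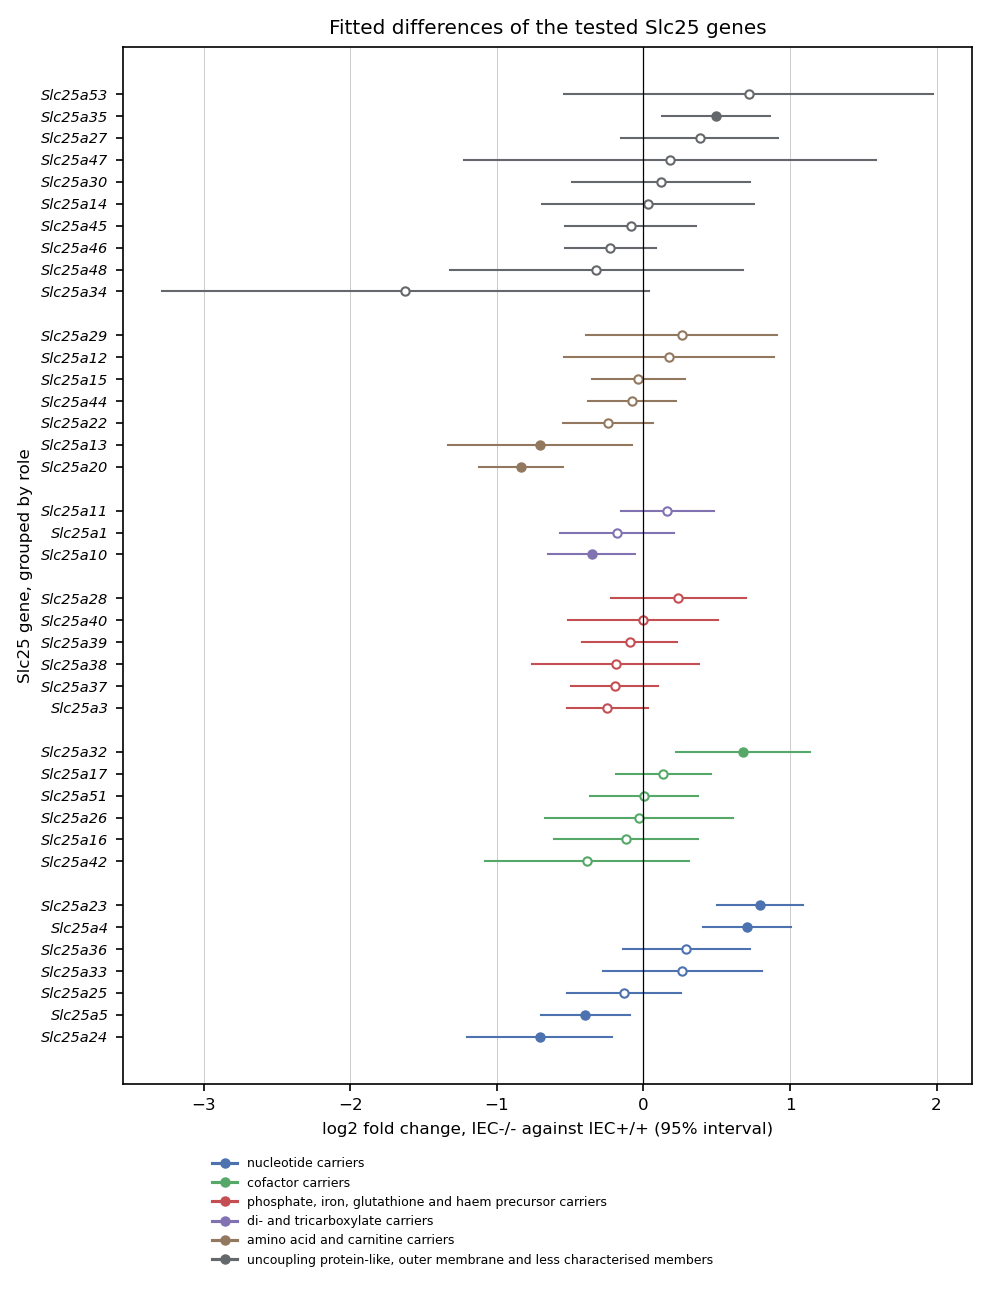
Fitted log2 fold change of the tested Slc25 genes that are named here, IEC-/- against IEC+/+, with its 95% interval, coloured by role; filled symbols have an unadjusted p under 0.05. Filled symbols lie on both sides of 0 among the nucleotide carriers, and the widest intervals belong to the low genes Slc25a34, Slc25a47 and Slc25a53.

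Among the nucleotide carriers, Slc25a4 and Slc25a5 had fitted differences of opposite sign, as did Slc25a23 and Slc25a24. Other paralogs shared a sign: Slc25a33 and Slc25a36 were both fitted higher, and Slc25a24 and Slc25a25 both lower. Of the 7 tested, 0 passed over all genes (0.884% of all genes did). Slc25a4, the ADP/ATP carrier best known from heart and muscle (chromosome 8, 46206797 to 46211284), had 117 and 109 CPM in the IEC+/+ libraries against 178 and 192 CPM in the IEC-/- libraries. Both IEC-/- libraries lay above both IEC+/+ libraries. The ratio was 1.63 (95% interval 1.32 to 2.01; log2 fold change 0.71, SE 0.12, edgeR quasi-likelihood adjusted p = 0.0731). Slc25a5 (chromosome X, 36795651 to 36798807) had 804 and 719.6 CPM in IEC+/+ compared with 596 and 562 CPM in IEC-/-. Here the IEC-/- pair lay below the IEC+/+ pair, at a ratio of 0.760 (0.615 to 0.940; adjusted p = 0.214). Striated muscle markers summed to 1.69 to 4.24 CPM in the 4 libraries, with Myh1, Myh4 and Myh6 at 0 in all of them. Smooth muscle markers summed to 465 and 185 CPM in IEC+/+ compared with 229.8 and 254 CPM in IEC-/-, with overlapping groups. The endothelial, macrophage and hepatocyte sums given above were higher in the same libraries as Slc25a4. In IEC-/-, Lyz2 and Alb made up much of the macrophage and hepatocyte sums. Cd14, a macrophage marker, was lower there than in IEC+/+. The part of other cell types in the Slc25a4 value was not tested. A further ADP/ATP carrier gene, Slc25a31, known from germ cells, was not tested, with 0 to 10 counts per library.

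The calcium-sensitive ATP-Mg/phosphate carriers adjust the adenine nucleotide pool of the matrix. Slc25a23 (chromosome 17, 57043711 to 57059863) had 33.9 and 31.9 CPM in IEC+/+ compared with 58.2 and 55.8 CPM in IEC-/-. The groups were well apart and the libraries within a group close, with means of 32.9 ± 1.43 and 57.0 ± 1.71 CPM and a ratio of 1.73 (1.41 to 2.12; log2 fold change 0.79, SE 0.12, edgeR adjusted p = 0.0583). Slc25a24 (chromosome 3, 109123149 to 109168457) had 196 and 135 CPM in IEC+/+ compared with 105 and 97.2 CPM in IEC-/-. IEC+/+ replicate 1 stood above the other 3 libraries, and the groups did not overlap (ratio 0.612, 0.434 to 0.864; adjusted p = 0.182). Slc25a25, another carrier of this type, had 33.7 and 28.5 CPM against 29.0 and 27.7 CPM, with overlapping groups. Slc25a41 had 1 count in 1 library, and Slc25a54 had 0 counts in all 4.

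The balance within these pairs, which was chosen for display after its values were seen, is given as a description. Per kb of exon, Slc25a4 made up 9.27% and 9.58% of the sum of Slc25a4 and Slc25a5 in IEC+/+, and 17.3% and 19.2% in IEC-/-. Slc25a23 made up 10.1% and 13.3% of the sum of Slc25a23 and Slc25a24 in IEC+/+, and 26.4% and 27.1% in IEC-/-. The minor paralog of each pair thus took a larger share in both IEC-/- libraries, while Slc25a5 and Slc25a24 remained the major ones in every library. For the aspartate/glutamate carriers, Slc25a12 made up 36.4% and 34.6% of the sum with Slc25a13 in IEC+/+ and 53.5% and 46.9% in IEC-/-. For the mitoferrins, Slc25a28 made up 49.7% and 47.6% of the sum with Slc25a37 in IEC+/+ and 53.0% and 58.7% in IEC-/-.

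**Figure D3:**
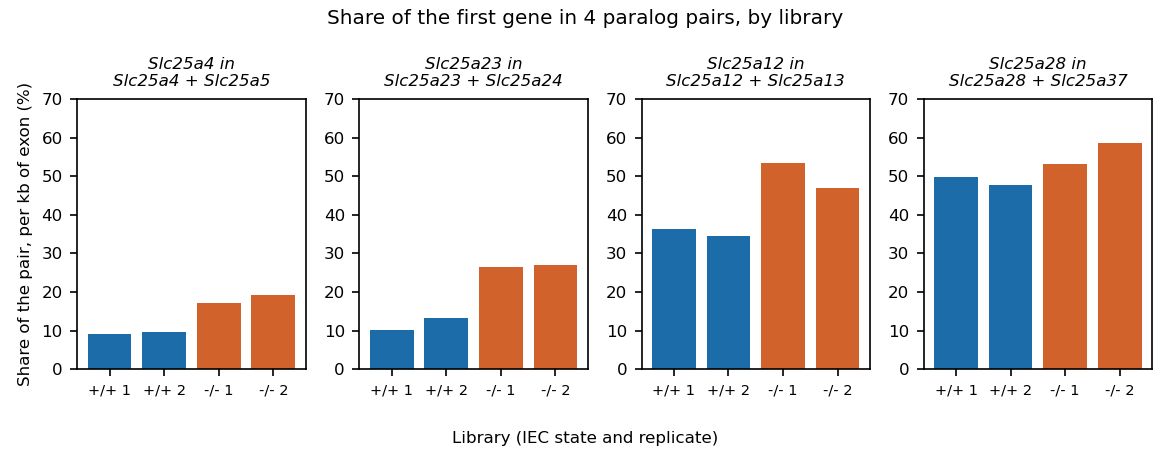
Share (%) of the first-named gene in the summed level per kb of exon of 4 paralog pairs, 1 bar per library, blue for IEC+/+ and orange for IEC-/-. In each pair both orange bars stand above both blue bars, from 9.27% and 9.58% to 17.3% and 19.2% for Slc25a4.

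The pyrimidine nucleotide carriers had smaller fitted differences. Slc25a33 had 16.4 and 21.5 CPM in IEC+/+ compared with 20.8 and 24.7 CPM in IEC-/-, with overlapping groups. Slc25a36 had 30.3 and 39.8 CPM against 45.0 and 40.8 CPM (edgeR adjusted p = 0.471), where the second IEC+/+ library nearly reached the IEC-/- libraries. Of the 7 nucleotide carriers tested, 4 were fitted higher and 3 lower, with a median log2 fold change of 0.27.

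Carriers of amino acids and carnitine held the lowest p of the family. Slc25a20, which brings acylcarnitines into the matrix for fatty acid oxidation (chromosome 9, 108662088 to 108684641), had 78.9 and 73.7 CPM in IEC+/+ compared with 42.9 and 42.6 CPM in IEC-/-. The IEC-/- libraries were nearly equal and lay far below both IEC+/+ libraries. The level was 1.78-fold lower (ratio 0.561, 95% interval 0.460 to 0.683; log2 fold change -0.83, SE 0.11), and the edgeR quasi-likelihood adjusted p was 0.0514. That p missed the threshold, and the gene was called by DESeq2 (adjusted p = 9.89e-06) and by the exact test (0.000992) but not by limma-voom. Over 10 alternatives its adjusted p ran from 9.89e-06 to 0.449 and its log2 fold change from -0.89 to -0.79. Other enzymes of the carnitine route had smaller differences: Cpt1a, which makes acylcarnitines at the outer membrane, had 133 and 126 CPM against 109 and 103 CPM (ratio interval 0.672 to 1.00; adjusted p = 0.307). The summed colonocyte and epithelial markers given above were lower in the same libraries as Slc25a20, and their part in its value was not tested.

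The aspartate/glutamate carriers serve the malate-aspartate shuttle. Slc25a13, the form known from liver (chromosome 6, 6041218 to 6217173), had 24.4 and 16.5 CPM in IEC+/+ compared with 12.8 and 12.3 CPM in IEC-/-. IEC+/+ replicate 1 was the highest library, and the groups did not overlap (ratio 0.613, 0.396 to 0.948; edgeR adjusted p = 0.260). Slc25a12, the form of brain and muscle, had 26.9 and 16.9 CPM against 28.5 and 20.9 CPM. Its replicates differed more than its groups, replicate 1 being higher in both. Slc25a22, a glutamate carrier, had 65.7 and 62.0 CPM against 51.0 and 57.1 CPM (adjusted p = 0.409), both IEC-/- libraries lying lower.

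Slc25a15, the ornithine carrier of the urea cycle, had 42.8 and 40.8 CPM in IEC+/+ compared with 38.5 and 43.0 CPM in IEC-/-. Its groups overlapped, and the 95% interval of the ratio was 0.783 to 1.22. Slc25a44, a carrier of branched-chain amino acids, had 39.4 and 40.4 CPM against 37.7 and 37.7 CPM (interval 0.769 to 1.16). Slc25a29, a carrier of basic amino acids, had 6.17 and 6.43 CPM against 8.05 and 7.05 CPM. Of the 7 carriers of this group tested, 2 were fitted higher and 5 lower (median log2 fold change -0.08). Slc25a18, a second glutamate carrier, had 4 to 18 counts per library and Slc25a2, the second ornithine carrier, 0 to 2, and neither was tested.

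Among carriers of cofactors 1 of 7 had an unadjusted p under 0.05, where 7.5% of all genes were higher and 9.12% lower. Slc25a32, which carries folate or FAD into the matrix (chromosome 15, 39091231 to 39112716), had 20.2 and 16.3 CPM in IEC+/+ compared with 28.1 and 30.4 CPM in IEC-/-. Both IEC-/- libraries lay above both IEC+/+ libraries, at a ratio of 1.60 (1.17 to 2.20; log2 fold change 0.68, SE 0.18, edgeR adjusted p = 0.167). Slc25a51, the NAD+ carrier, had 154 and 124 CPM against 142 and 137 CPM, so that the IEC-/- libraries lay between the IEC+/+ ones (ratio interval 0.779 to 1.30). The peroxisomal carrier Slc25a17 had 60.7 and 52.5 CPM against 59.9 and 64.5 CPM. Slc25a26, the S-adenosylmethionine carrier, and Slc25a16 and Slc25a42, linked to coenzyme A, all had overlapping groups and log2 fold changes of -0.03, -0.12 and -0.39.

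**Figure D4:**
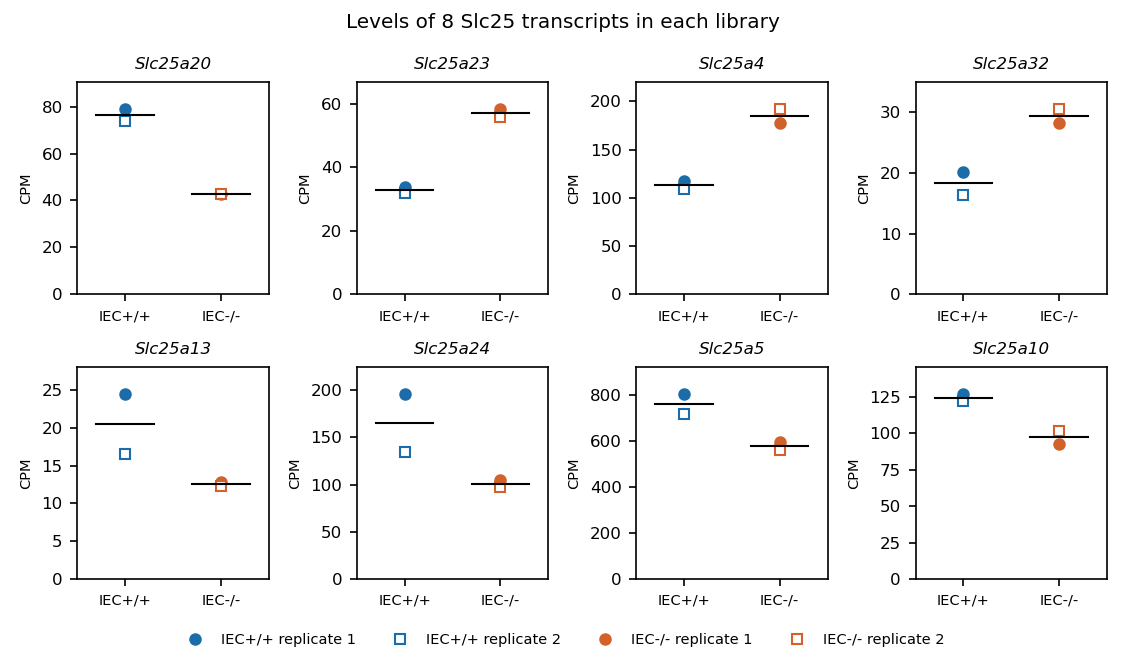
CPM of 8 Slc25 transcripts in each library, with circles for replicate 1, squares for replicate 2 and bars for the group mean (n = 2). All 8 had an unadjusted p under 0.05 by edgeR's quasi-likelihood test, so these panels do not stand for the family. The groups do not overlap in any of the 8 panels: Slc25a20, for example, lies at 78.9 and 73.7 CPM in IEC+/+ and at 42.9 and 42.6 CPM in IEC-/-. Of all genes, 24.0% lay higher and 24.1% lower in IEC-/- without overlap.

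Among carriers of organic acids 1 of the 3 tested had an unadjusted p under 0.05 (7.5% of all genes were higher and 9.12% lower). Slc25a10, which exchanges malate or succinate for phosphate (chromosome 11, 120491840 to 120499187), had 127 and 122 CPM in IEC+/+ compared with 92.9 and 102 CPM in IEC-/-. Both IEC-/- libraries lay lower (ratio 0.784, 0.638 to 0.962; edgeR adjusted p = 0.243). Slc25a11, the oxoglutarate carrier of the malate-aspartate shuttle, had 83.3 and 96.2 CPM against 99.4 and 102 CPM, both IEC-/- libraries lying slightly higher (adjusted p = 0.589). Slc25a1 had 132 and 129 CPM against 101 and 129.7 CPM. Only IEC-/- replicate 1 was low for this citrate carrier, the other 3 libraries lying together. Slc25a21, the oxodicarboxylate carrier, had 4 counts in 1 library and was not tested.

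Carriers of phosphate, iron, glutathione and glycine were fitted within 1.2-fold in all 6 cases. Slc25a3 had 485 and 469.7 CPM in IEC+/+ compared with 399 and 406 CPM in IEC-/-. Both IEC-/- libraries lay below both others, at a ratio of 0.843 (0.696 to 1.02; edgeR adjusted p = 0.350). Of the mitoferrins, which bring iron in for haem and iron-sulphur clusters, Slc25a37 had 55.2 and 58.5 CPM against 47.6 and 51.9 CPM. Slc25a28 had 34.0 and 33.1 CPM against 33.4 and 45.8 CPM, IEC-/- replicate 2 standing alone above the other 3 libraries. Slc25a37 is best known from erythroid cells. Summed erythroid markers were 257 and 607 CPM in IEC+/+ compared with 292 and 140.2 CPM in IEC-/-, with Ahsp at 0. Both the marker sum and Slc25a37 were highest in IEC+/+ replicate 2, and the part of erythroid cells in its value was not tested. The glutathione carrier Slc25a39 had 120.4 and 128 CPM against 108 and 125 CPM, its paralog Slc25a40 14.6 and 14.5 CPM against 13.4 and 15.7 CPM, and Slc25a38, linked to glycine import for haem, 20.1 and 29.4 CPM against 21.2 and 22.2 CPM. All 3 had overlapping groups.

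The remaining members, less well characterised, were mostly low. Slc25a35 (chromosome 11, 68968131 to 68974365) had 31.6 and 36.6 CPM in IEC+/+ compared with 44.7 and 51.4 CPM in IEC-/- (ratio 1.41, 1.09 to 1.82; edgeR adjusted p = 0.197). Both IEC-/- libraries were higher, with the uncertainty from Rangrf named above: Rangrf had 28.5 and 29.2 CPM against 31.1 and 30.5 CPM. Slc25a46, an outer membrane protein linked to mitochondrial fission, had 75.3 and 66.5 CPM against 62.8 and 58.5 CPM (adjusted p = 0.448). Slc25a27, an uncoupling protein-like member, had 10.2 and 11.7 CPM against 13.7 and 15.0 CPM (adjusted p = 0.446). In these 2 genes the groups did not overlap, and the 95% intervals of the ratio, 0.689 to 1.06 and 0.901 to 1.89, held 1.

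Slc25a34 had the widest gap of the family in fitted terms and also the widest spread. It had 3.93 and 1.97 CPM in IEC+/+ compared with 0.503 and 1.41 CPM in IEC-/-, from 102, 52, 14 and 37 counts (ratio 0.324, 0.103 to 1.03; edgeR adjusted p = 0.311). Its IEC+/+ libraries differed by 1.00 on the log2 scale and its IEC-/- libraries by 1.49. Slc25a47, known from liver, had 3.55 and 6.13 CPM against 2.95 and 8.04 CPM, replicate 2 being higher in both groups. Slc25a53 had 1.00 and 1.10 CPM against 1.26 and 2.21 CPM. Slc25a14, Slc25a30, Slc25a45 and Slc25a48 had overlapping groups and log2 fold changes of 0.03, 0.12, -0.08 and -0.32. Slc25a43 was not tested, with 6 to 17 counts per library.

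Genes that work beside the carriers were read from 9 further lists. Of 66 genes, 63 were tested and 0 passed over all genes by edgeR's quasi-likelihood test (0.884% of all genes did), and at an unadjusted p under 0.05 there were 10 lower and 0 higher, where 9.12% and 7.5% of all genes were. Their median log2 fold change was -0.09. The pore of the calcium uniporter, Mcu, had 92.8 and 77.6 CPM in IEC+/+ compared with 55.3 and 53.5 CPM in IEC-/- (ratio interval 0.506 to 0.807; adjusted p = 0.107). Smdt1, a subunit of the same complex, had 70.9 and 67.2 CPM against 50.003 and 54.8 CPM (adjusted p = 0.197). Both had lower values in both IEC-/- libraries, and of the 7 genes of that complex 3 were lower and 0 higher at an unadjusted p under 0.05 (9.12% and 7.5% of all genes).

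The 5 genes of the pyruvate carrier and the outer membrane channels all had lower values in both IEC-/- libraries, as did 24.1% of all genes. Vdac1 and Vdac2, channels through which solutes reach the carriers, had 383 and 357 CPM against 306 and 289 CPM, and 318 and 291 CPM against 248 and 231 CPM (edgeR adjusted p = 0.270 and 0.252). Of 12 genes that import carrier proteins 0 had an unadjusted p under 0.05 (7.5% of all genes were higher and 9.12% lower). Tomm20, a receptor of the outer membrane, had 142 and 146 CPM against 159 and 180.1 CPM, and Tomm22 94.5 and 90.8 CPM against 71.0 and 85.2 CPM. In that list the values went both ways, 3 fitted higher and 9 lower.

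Regulators of mitochondrial biogenesis included 3 of 8 genes lower and 0 higher at an unadjusted p under 0.05 (9.12% and 7.5% of all genes). Esrra, an estrogen-related receptor, had 119 and 121 CPM in IEC+/+ compared with 94.2 and 90.7 CPM in IEC-/-, and the coactivator Ppargc1b 32.6 and 23.3 CPM against 19.1 and 13.8 CPM (edgeR adjusted p = 0.198 and 0.246). Of the malate-aspartate shuttle enzymes, Got1 had 49.2 and 32.3 CPM against 26.0 and 30.7 CPM and its mitochondrial partner Got2 114 and 115 CPM against 131 and 135 CPM. Those 2 transaminases thus lay in opposite directions (adjusted p = 0.345 and 0.413). Cs, citrate synthase, had 407 and 338 CPM against 310 and 287 CPM (adjusted p = 0.336). In the ornithine list Arg2, the mitochondrial arginase, had 5.59 and 7.34 CPM against 1.87 and 3.51 CPM (adjusted p = 0.237), and Cps1 overlapped between groups with 4.82 and 7.07 CPM against 5.82 and 15.2 CPM. In the haem list Alas1, the first enzyme of the pathway, had 104 and 86.4 CPM against 61.3 and 75.5 CPM, and Fech, the last, 47.4 and 42.6 CPM against 55.4 and 52.9 CPM (adjusted p = 0.249 and 0.359).

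Members of the family under other symbols showed no group difference past an unadjusted p of 0.05. Ucp2, the uncoupling protein of epithelium and immune cells, had 525 and 500.2 CPM in IEC+/+ compared with 506 and 588 CPM in IEC-/- (edgeR adjusted p = 0.786). Mtch2, an outer membrane insertase, had 123 and 112 CPM against 102 and 113 CPM (adjusted p = 0.672). Both overlapped between groups. Ucp1, of brown fat, had 0 counts in all 4 libraries, and Ucp3 0 to 1.

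**Figure D5:**
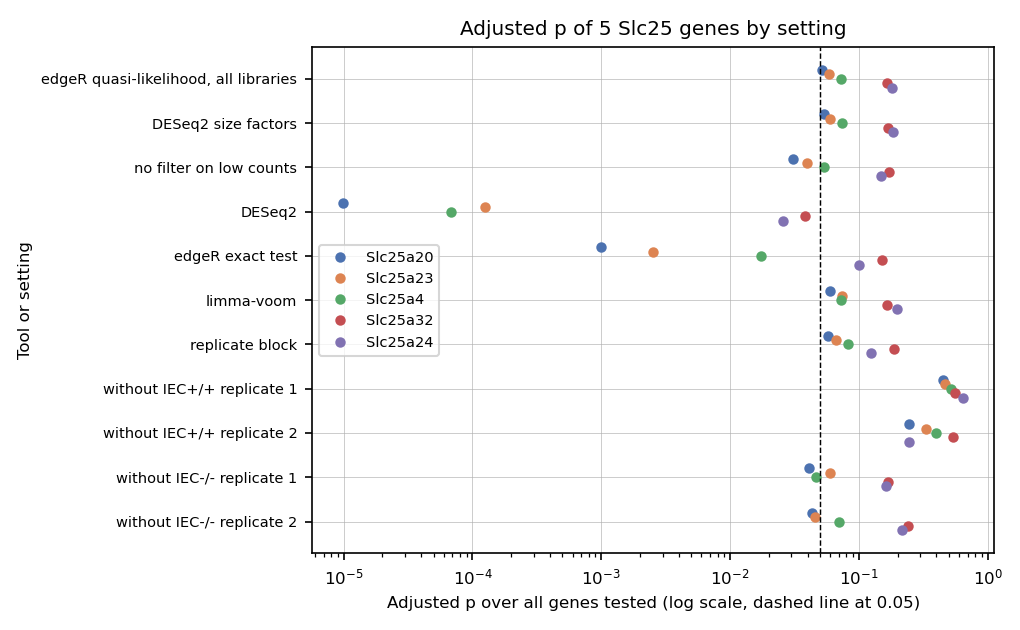
Adjusted p (log axis, dashed line at 0.05) of 5 Slc25 genes under each tool or setting. Slc25a20, Slc25a23 and Slc25a4 lie left of the line by DESeq2 and by the exact test. They lie right of it by the filtered quasi-likelihood test on all libraries, by limma-voom and whenever an IEC+/+ library is left out. With no filter on low counts, Slc25a20 and Slc25a23 lie left of it.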

How the data were processed

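Polyadenylated RNA of 4 mouse colon tumour samples was sequenced as paired reads on an Illumina instrument after NEBNext Ultra library preparation, per the labels' protocols. The authors deposited raw counts of reads, 1 whole number for each gene symbol. TopHat, edgeR, limma and mm10 appear in the submitters' processing notes without roles or versions; the counting tool, its annotation and its use of strand are not given in the sources used here. Total counts of 25472503 to 27218515 per library limit precision mainly for members with few counts.

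Groups and replicate numbers came from the sample titles. The test was the quasi-likelihood F-test of edgeR 4.0.16 (R 4.3.3) for the group alone, after TMM scaling and the default expression filter, which kept 16637 of 20618 genes with a count. P-values were adjusted by Benjamini-Hochberg over all genes tested, with calls at an adjusted p under 0.05. Standard errors were derived from the F statistic, and intervals cover 95%. CPM use the scaled library sizes. No library repeated another: chi-square per degree of freedom was at least 33.8 for each pair. The test was checked on simulated counts. Positions, exon lengths and shared 50-base words came from GENCODE vM21 on GRCm38, promoters from RefSeq tables of GRCm38.p6 (36 of 47 members matched by symbol). Protein sequences were not used here.

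Alternatives were DESeq2 1.42.0, the exact test of edgeR, limma-voom (limma 3.58.1), the size factors of DESeq2, no filter on low counts, a replicate block and leaving out each library. Members and lists were chosen with earlier results of these data known. Values in every library are given for the 16 members with the smallest p, for a fixed set of 14 well-known carriers, and for the 2 genes with the smallest p in each related list; further members are given more briefly. The values of 1 member, counted in the totals, are not reported here.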

Additional observations from a re-analysis of the deposited data

How the results depend on the processing

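With 2 libraries a group, calls depended on the tool more than directions did. By the quasi-likelihood test of edgeR 0 carriers were called higher and 0 lower, and at an unadjusted p under 0.05 these were 4 and 5. DESeq2 called 3 higher and 2 lower, the exact test 2 and 1, and the fit without a filter on low counts 1 and 1; the size factors of DESeq2 and limma-voom called 0. Over all genes these counts were 147 in the main setting, 1303, 869, 376, 143 and 78. Leaving out each library in turn, where the lone library of a group is given the spread of the other group, gave 0 to 1 carriers called higher and 0 to 1 lower. The calls came only without an IEC-/- library: Slc25a20 (adjusted p = 0.0409) and Slc25a4 (0.0469) without replicate 1, and Slc25a20 (0.0435) and Slc25a23 (0.0459) without replicate 2. Over the 10 alternatives adjusted p ran from 9.89e-06 to 0.449 for Slc25a20, 0.000125 to 0.469 for Slc25a23 and 6.78e-05 to 0.518 for Slc25a4. In the alternatives that kept all libraries, 4 carriers were higher at an unadjusted p under 0.05 in each. Those lower at that limit ran from 4 by the exact test to 7 by DESeq2. The family's median log2 fold change stayed between -0.10 and -0.005 when a library was left out. Of 230 refitted values of 23 named carriers, 210 kept direction and side of the threshold, 14 passed it and 6 turned direction, each with a library left out: the ranges were -0.13 to 0.55 for Slc25a12, -0.12 to 0.032 for Slc25a15, -0.011 to 0.44 for Slc25a28 and -0.15 to 0.17 for Slc25a51. The cause was not tested. The labels do not say that replicate numbers pair samples, and the correlation of same-numbered deviations from the group means over genes was 0.16; with a replicate block 0 carriers were called higher and 0 lower, the median was -0.03, and 211 genes were called in all. The 6 untested members with a count had 1 to 38 counts in all and did not pass the filter on low counts.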
